A study of Homo sapiens with 18 samples.

Results

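The matrix metalloproteinases (MMPs) and their tissue inhibitors (TIMPs) were followed as a set of 9 genes, MMP1, MMP2, MMP3, MMP9, MMP13, MMP14, TIMP1, TIMP2 and TIMP3, out of 19775 genes on the array. Their members were the probe sets annotated to exactly 1 of these genes. There were 19 such probe sets, with 4 each for MMP14 and TIMP3, 3 each for MMP2 and TIMP2, and 1 for each other gene. MMPs are zinc enzymes that cleave collagens and other matrix proteins outside the cell, and most are secreted as inactive proenzymes that must be cut to become active. TIMPs bind the active site of MMPs and block it, and some TIMPs also bind proenzymes. In bone, these enzymes take part in the turnover of collagen by osteoblasts, chondrocytes and osteoclasts, and in tumors they are known for matrix breakdown during invasion.

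Labeled RNA was read on 18 Affymetrix arrays of the 3' expression type. The lines, MNNG/HOS (called MNNG here) and 143B, are human osteosarcoma lines that both descend from the HOS line. All cells carried the green fluorescent protein ZsGreen and had taken up PKH26, a dye of the cell membrane that each division dilutes, and were grown as orthotopic bone tumors. Cells that had kept the dye (High, 150000 sorted cells) and cells that had lost it (Low, 700000 sorted cells) were taken from the soft tissue part of the same tumors. The 143B_High group had 3 arrays, tumor 143B-1253 and 2 pools of 2 tumors each (51&52 and 54&55), and the 143B_Low group had 5 arrays, tumors 143B-1251 to 143B-1255. The MNNG_Lung group had 2 arrays from lung metastases, animal MNNG-1233 and a mixture (Mix), and the sources used here do not say whether they were sorted. What Mix holds is not stated either, so it may share animals with other arrays. The number MNNG-1233 is also that of 1 MNNG_High and 1 MNNG_Low array, and the lung comparisons treated all arrays as independent. The MNNG_High and MNNG_Low groups had 4 arrays each, tumors MNNG-1231 to MNNG-1233 and then MNNG-1235. Values of a group are given in this order of its tumors. Each group therefore rests on 1 xenografted line, and the small number of arrays limits the precision of each value. In such bulk samples, fewer cells of a type and less RNA per cell cannot be told apart.

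Values are the log2 signals of probe sets. For each gene the probe set of highest mean signal stood for the gene, and the gene was tested if it reached 5.36, the median of the whole table, on at least 3 arrays. Of the 9 genes, 8 passed, as did 17 of the 19 probe sets, and MMP3 did not. Differences came from a limma fit over all 18 arrays, are given as log2 difference ± standard error, and are called where the Benjamini-Hochberg adjusted p over all 14418 genes (or over all 26556 probe sets) is under 0.05. The standard error draws on the spread within every group, the lung arrays included, also where a comparison does not use them. A difference from a group whose mean lies under 5.36 has a direction, but its size is uncertain. The comparisons share groups, so their values are set side by side and were not treated as separate evidence. Levels of different probe sets were not compared with each other.

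The lung arrays stood apart from the bone tumor arrays. Their interquartile range of log2 signal was 2.09 and 2.28, against 2.76 to 3.4 in the MNNG bone tumor arrays, and they correlated with each other at 0.865 over all probe sets, against at least 0.956 between arrays of a bone tumor group. The 3' control probe set of beta-actin read 9.63 and 11.06 on the lung arrays, against 13.33 to 13.73 in MNNG bone tumors, while the actin probe set for the middle of the transcript read 13.86 to 13.97 against 13.12 to 13.59. Of the mesenchymal markers, VIM averaged 14.28 on the lung arrays, 14.57 in MNNG_High and 14.55 in MNNG_Low, and COL1A1 averaged 8.98, 13.83 and 13.55 in the same groups. The lung arrays lay far apart for COL1A1, at 6.38 and 11.59. COL1A2 averaged 8.44 on the lung arrays, 8.51 in MNNG_High and 8.56 in MNNG_Low. Of the osteoblast genes, RUNX2 averaged 6.68, 10.10 and 10.50, while ALPL (6.04 on the lung arrays) and SP7 (6.38) averaged under 5.36 in MNNG_High and MNNG_Low. All 143B arrays carry 1 date tag in their labels and no MNNG array carries it, so line and date tag cannot be told apart.

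**Figure D1:**
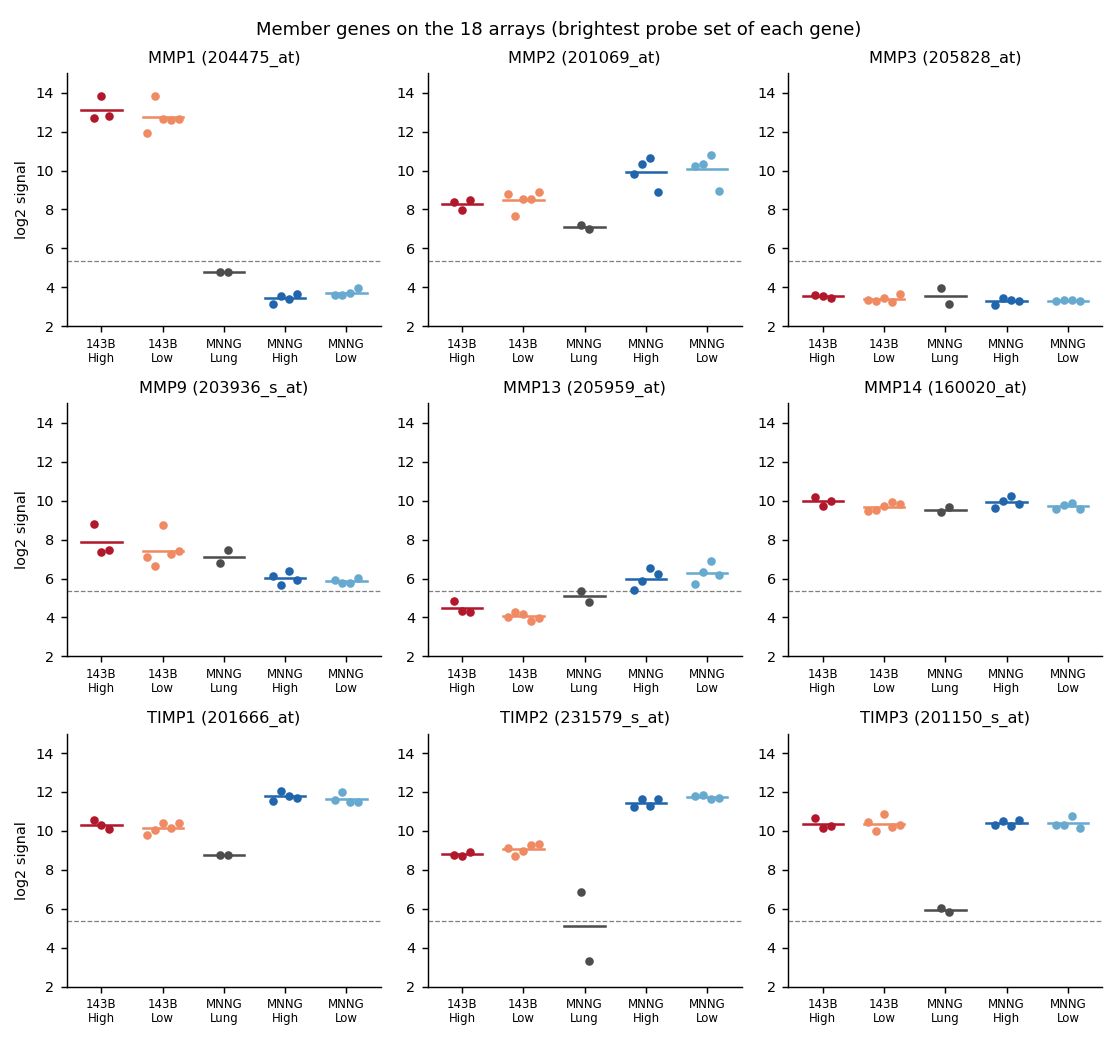
Log2 signal of the representing probe set of each of the 9 genes on all 18 arrays (vertical axis), by group (horizontal axis), with a point for each array and a bar for the group mean; the dashed line is the filter at 5.36. MMP1 lies between 11.94 and 13.85 in 143B and between 3.15 and 3.95 in MNNG bone tumors, and MMP3 lies under the line on every array.

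The first question was how the enzymes and inhibitors differ between the lines. MMP1, the interstitial collagenase that cuts fibrillar collagen, was high in 143B and near the bottom of the scale in MNNG, in both fractions. Its log2 signal was 12.72, 13.85 and 12.78 on the 143B_High arrays (tumor 143B-1253 and the pools), and 3.15, 3.56, 3.41 and 3.66 on the MNNG_High arrays. It was 11.94, 13.81, 12.66, 12.62 and 12.63 in 143B_Low, and 3.59, 3.61, 3.71 and 3.95 in MNNG_Low. The lines did not overlap in either fraction, and within 143B the highest values came from tumor 143B-1252 and from the pool that holds it. The difference was 9.67 ± 0.32 in High cells (817-fold, adjusted p = 4.55e-13) and 9.02 ± 0.28 in Low cells (518-fold, adjusted p = 5.3e-14), and since MMP1 lay under the filter in MNNG these sizes are uncertain.

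MMP13, collagenase 3, which cuts the collagens of bone and cartilage, went the other way. It read 4.85, 4.35 and 4.27 in 143B_High against 5.39, 5.89, 6.52 and 6.21 in MNNG_High, and 4.02, 4.26, 4.17, 3.80 and 3.99 in 143B_Low against 5.72, 6.32, 6.88 and 6.18 in MNNG_Low. Every MNNG bone tumor array lay above every 143B array. MMP13 fell by 1.51 ± 0.26 in 143B_High relative to MNNG_High (adjusted p = 0.000277) and by 2.23 ± 0.23 in 143B_Low relative to MNNG_Low (adjusted p = 7.15e-07), with both 143B means under the filter.

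MMP1 and MMP13 belong to a cluster of MMP genes on chromosome 11, which lie in RefSeq in the order MMP7, MMP20, MMP27, MMP8, MMP10, MMP1, MMP3, MMP12 and MMP13, with MMP26 apart from them on the same chromosome. MMP10, stromelysin 2, next to MMP1 in that order, averaged 7.90 in 143B_High against 4.95 in MNNG_High, and 7.23 in 143B_Low against 4.68 in MNNG_Low. It was called in both (2.95, adjusted p = 4e-05, and 2.55, adjusted p = 3.96e-05). MMP3, stromelysin 1, which cleaves proteoglycans and can activate proMMP1, is the neighbor on the other side. It averaged 3.53 in 143B_High against 3.29 in MNNG_High, and 3.39 in 143B_Low against 3.31 in MNNG_Low. Its highest array of all 18 read 3.96, on the lung array of animal MNNG-1233, so MMP3 was not above the filter anywhere and was not tested. MMP12, macrophage elastase, also did not pass the filter, with 143B minus MNNG differences of 0.23 in High and 0.31 in Low cells. The remaining members of the row were under the filter in both lines and differed by -0.40 to 0.02.

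**Figure D2:**
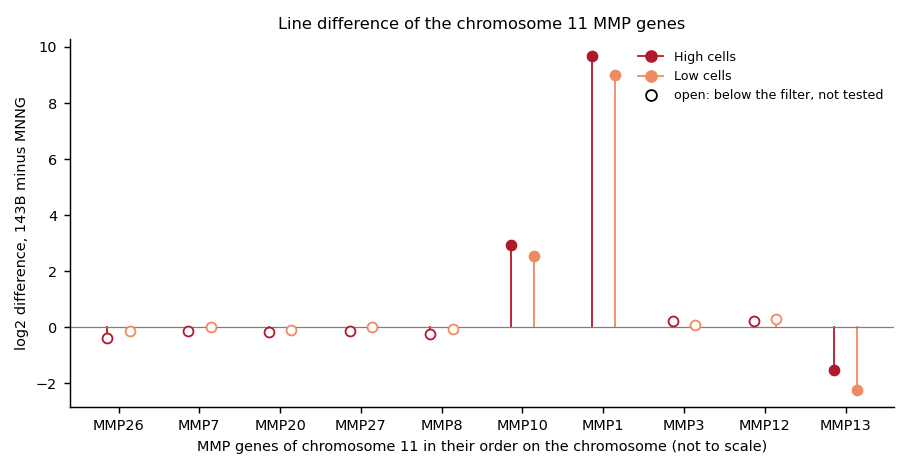
Difference in mean log2 signal, 143B minus MNNG (vertical axis), for the MMP genes of chromosome 11 in their RefSeq order (horizontal axis, not to scale), in High and Low cells; open points are genes that did not pass the filter. MMP1 stands at 9.67 and 9.02, MMP10 at 2.95 and 2.55, MMP13 at -1.51 and -2.23, and MMP3 between them at 0.23 and 0.08.

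The gelatinases cut denatured collagen and the type IV collagen of basement membranes, and they differed between the lines in opposite directions. MMP9, gelatinase B, which neutrophils, macrophages and osteoclasts also release, read 8.82, 7.37 and 7.47 in 143B_High against 6.12, 5.66, 6.39 and 5.94 in MNNG_High. It read 7.09, 6.66, 8.76, 7.25 and 7.42 in 143B_Low against 5.94, 5.76, 5.75 and 6.04 in MNNG_Low. The lines did not overlap, and in 143B tumor 143B-1253 was the highest in both fractions. MMP9 rose by 1.86 ± 0.39 in 143B_High relative to MNNG_High (adjusted p = 0.00135) and by 1.56 ± 0.34 in 143B_Low relative to MNNG_Low (2.95-fold, adjusted p = 0.0018). The summed log2 signal of 13 macrophage markers ran from 66.9 to 70.8 in 143B_High against 73.3 to 78.8 in MNNG_High, and from 63.2 to 65.8 in 143B_Low against 65.1 to 67.1 in MNNG_Low. That list was lower in every 143B_High array than in any MNNG_High array, and the Low groups overlapped. The sum of 6 osteoclast markers ran from 31.3 to 32.3 in 143B_High against 32.4 to 34.6 in MNNG_High, but from 31.1 to 31.6 in 143B_Low against 30.2 to 30.4 in MNNG_Low. For 10 neutrophil markers it ran from 38.9 to 39.9 in 143B_High against 40.4 to 45.2 in MNNG_High, and from 37.9 to 39.6 in 143B_Low against 39.7 to 40.2 in MNNG_Low. Array spread differed too, with an interquartile range of 3.26 to 3.34 in 143B_High against 2.76 to 3.18 in MNNG_High. The part of these cells in the difference of MMP9 was not tested.

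MMP2, gelatinase A, read 8.38, 7.96 and 8.47 in 143B_High against 9.81, 10.33, 10.64 and 8.90 in MNNG_High. It read 8.79, 7.66, 8.51, 8.52 and 8.89 in 143B_Low against 10.22, 10.34, 10.81 and 8.96 in MNNG_Low. Tumor MNNG-1235 was the lowest MNNG tumor in both fractions and lay just above the highest 143B array in the Low cells, and the groups did not overlap. MMP2 fell by 1.65 ± 0.40 in 143B_High (adjusted p = 0.00419) and by 1.61 ± 0.35 in 143B_Low (adjusted p = 0.00188). Its other 2 probe sets were dim in all bone tumor groups: 1566677_at did not pass the filter, and 1566678_at averaged 4.54 in 143B_High against 4.89 in MNNG_High and 4.33 in both Low groups.

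MMP14, the membrane-type enzyme that cuts collagen at the cell surface and activates proMMP2, was not called between the lines by its representing probe set, 160020_at. Its signal was 10.17, 9.75 and 9.99 in 143B_High against 9.65, 9.998, 10.26 and 9.81 in MNNG_High, and 9.47, 9.52, 9.71, 9.92 and 9.85 in 143B_Low against 9.55, 9.77, 9.89 and 9.60 in MNNG_Low. The difference was 0.04 ± 0.17 in High cells, with a 95% interval of -0.31 to 0.39, and -0.01 ± 0.15 in Low cells, with an interval of -0.32 to 0.30. In High cells, 1 of its 4 probe sets, 217279_x_at, was called lower in 143B (-1.18 ± 0.24, adjusted p = 0.00104), a point taken up with dye retention below.

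TIMP1, which inhibits most secreted MMPs and binds proMMP9, was lower in 143B. It read 10.57, 10.29 and 10.12 in 143B_High against 11.54, 12.06, 11.82 and 11.67 in MNNG_High, and 9.80, 10.03, 10.41, 10.15 and 10.39 in 143B_Low against 11.56, 11.995, 11.50 and 11.50 in MNNG_Low. No 143B array reached any MNNG bone tumor array. TIMP1 fell by 1.44 ± 0.18 in 143B_High (adjusted p = 7.45e-06) and by 1.48 ± 0.16 in 143B_Low (adjusted p = 8.47e-07).

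TIMP2, which inhibits MMPs and also forms the bridge by which MMP14 holds proMMP2 for activation, was lower in 143B by all 3 of its probe sets. The representing probe set, 231579_s_at, read 8.78, 8.71 and 8.92 in 143B_High against 11.24, 11.66, 11.29 and 11.64 in MNNG_High, and 9.12, 8.72, 8.98, 9.27 and 9.34 in 143B_Low against 11.80, 11.85, 11.62 and 11.67 in MNNG_Low. The bone tumor groups of the lines did not overlap. TIMP2 fell by 2.65 ± 0.48 in 143B_High (adjusted p = 0.000344) and by 2.65 ± 0.42 in 143B_Low (adjusted p = 8.19e-05). These standard errors take in the lung arrays, with a standard deviation of 2.50 for this probe set, against 0.11 to 0.25 in the bone tumor groups. By 224560_at TIMP2 differed by -2.50 ± 0.21 in High and -2.79 ± 0.19 in Low cells, and by 203167_at by -2.57 ± 0.25 and -1.65 ± 0.22, all called.

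TIMP3, which binds to the matrix and inhibits ADAM and ADAMTS enzymes as well as MMPs, was not called between the lines. Its representing probe set, 201150_s_at, read 10.67, 10.15 and 10.27 in 143B_High against 10.30, 10.51, 10.27 and 10.56 in MNNG_High, and 10.48, 10.003, 10.86, 10.20 and 10.33 in 143B_Low against 10.31, 10.31, 10.78 and 10.15 in MNNG_Low. The groups overlapped throughout. The difference was -0.04 ± 0.19 in High cells, with a 95% interval of -0.45 to 0.36, and -0.01 ± 0.17 in Low cells, with an interval of -0.37 to 0.35. The other 3 probe sets of TIMP3 were not called either.

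In all, 6 of the 8 genes tested were called between the lines in each fraction, MMP1 and MMP9 higher and MMP2, MMP13, TIMP1 and TIMP2 lower in 143B. Of all genes tested, 36.1% were called in High cells (21.4% higher, 14.7% lower) and 28.8% in Low cells (14.4% higher, 14.5% lower). The 6 called genes were also those whose groups did not overlap, where 42% of all genes did not overlap in High and 38.3% in Low cells. Of the probe sets, 9 of 17 were called in High cells, 2 higher and 7 lower (32.7% of all probe sets, 20.4% higher and 12.3% lower), and 8 of 17 in Low cells, 2 higher and 6 lower (27.1%, with 13.6% higher and 13.6% lower). The median over the 3 TIMPs was -1.44 in High and -1.48 in Low cells, against 0.01 and -0.04 over all genes. These 6 calls and their directions were kept under every alternative run for the line comparisons.

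Upstream sequence was printed for the 3 genes that the RefSeq promoter table holds, out of 9, to set beside the contrast that TIMP1 was called between the lines while MMP14 and TIMP3 were not. Each is the 250 bases before the annotated start, 5' to 3', on the plus strand of GRCh38.p14, at chr14:22836335-22836584 (MMP14), chrX:47582186-47582435 (TIMP1) and chr22:32801455-32801704 (TIMP3). Capitals mark the GC box GGGCGG, the letters bound by SP-family factors, or its reverse complement CCGCCC.
MMP14: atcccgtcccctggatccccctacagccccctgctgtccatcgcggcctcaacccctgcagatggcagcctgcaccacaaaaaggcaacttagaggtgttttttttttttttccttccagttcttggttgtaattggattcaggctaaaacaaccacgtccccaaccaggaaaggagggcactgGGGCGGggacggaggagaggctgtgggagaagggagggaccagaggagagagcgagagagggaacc
TIMP1: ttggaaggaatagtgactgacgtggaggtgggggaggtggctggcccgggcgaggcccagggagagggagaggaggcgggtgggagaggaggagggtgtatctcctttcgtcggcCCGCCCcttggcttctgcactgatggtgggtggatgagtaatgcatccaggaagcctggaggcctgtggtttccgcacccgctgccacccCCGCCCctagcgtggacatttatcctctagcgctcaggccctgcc
TIMP3: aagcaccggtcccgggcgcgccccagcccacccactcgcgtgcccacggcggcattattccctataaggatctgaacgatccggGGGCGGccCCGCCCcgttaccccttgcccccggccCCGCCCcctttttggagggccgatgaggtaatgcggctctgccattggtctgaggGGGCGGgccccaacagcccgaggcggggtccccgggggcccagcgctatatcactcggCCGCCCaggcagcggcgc
The MMP14 window holds 1 GC box, the TIMP1 window 2 and the TIMP3 window 5, and their GC content is 56.8%, 64.8% and 72.4%. Of 27305 RefSeq promoter windows of the same length, 42.3% hold a GC box on either strand. None of the 3 windows holds the AP-1 motif TGANTCA, found in 6.6% of all windows, or the TATA box TATAAA, found in 11.1%, with both strands searched and no overlap between the motifs. A match describes letters in a window, not a bound site, and sequences close to a motif were not searched.

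The second question was whether dye-retaining cells, which the labels call tumor-initiating, differ from dye-diluted cells of the same line. In MNNG none of the 8 genes was called by limma, where 26.1% of all genes were, and none had an unadjusted p under 0.05. The High minus Low differences were 0.15 ± 0.36 for MMP9, -0.27 ± 0.29 for MMP1, -0.28 ± 0.24 for MMP13 and -0.16 ± 0.37 for MMP2. MMP14 differed by 0.22 ± 0.15, TIMP1 by 0.13 ± 0.17, TIMP2 by -0.28 ± 0.44 and TIMP3 by 0.02 ± 0.18, against a median of -0.19 over all genes. Adjusted p ranged from 0.258 to 0.922, and the groups overlapped for all 8 genes, where 29.8% of all genes did not overlap.

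Single probe sets did differ. Of the 17 tested, 2 were called in MNNG and both were higher, where 25.5% of all probe sets were called and 9.53% were called higher. MMP14 217279_x_at read 10.48, 10.20, 10.79 and 9.85 in MNNG_High against 8.50, 8.18, 8.30 and 7.91 in MNNG_Low. High exceeded Low in every tumor, by 1.98, 2.02, 2.49 and 1.95. The difference was 2.11 ± 0.22 (adjusted p = 7.02e-05).

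The other MMP14 probe sets did not show it. For 202827_s_at, 160020_at and 202828_s_at the differences were 0.07 ± 0.14, 0.22 ± 0.16 and 0.28 ± 0.15, and none was called. The interval of 217279_x_at, 1.64 to 2.57, lies above the intervals of these probe sets, the highest of which ends at 0.60.

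TIMP2 split as well, and its other probe sets were lower in High. Probe set 203167_at read 10.80, 10.63, 11.19 and 10.21 in MNNG_High against 8.92, 8.87, 8.63 and 8.50 in MNNG_Low, and High exceeded Low by 1.88, 1.75, 2.55 and 1.71 in the 4 tumors. The difference was 1.97 ± 0.23 (adjusted p = 0.000175). Probe set 224560_at read 10.75, 11.24, 10.39 and 11.22 in MNNG_High against 11.44, 11.51, 11.34 and 11.37 in MNNG_Low, which do not overlap either, with High the lower (-0.51 ± 0.20, adjusted p = 0.0617). For 224560_at, High minus Low was -0.69, -0.27, -0.95 and -0.15 in the 4 tumors. Probe set 231579_s_at differed by -0.28 ± 0.44, and by -0.56, -0.19, -0.33 and -0.02 in these tumors. Its standard error draws on all 5 groups, with standard deviations of 0.22 in MNNG_High, 0.11 in MNNG_Low and 2.50 on the lung arrays. The difference of 231579_s_at was called under no alternative run. Groups did not overlap for 4 of the 17 probe sets, the fourth being TIMP3 201147_s_at (0.28 ± 0.23), where 28.9% of all probe sets did not overlap.

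**Figure D3:**
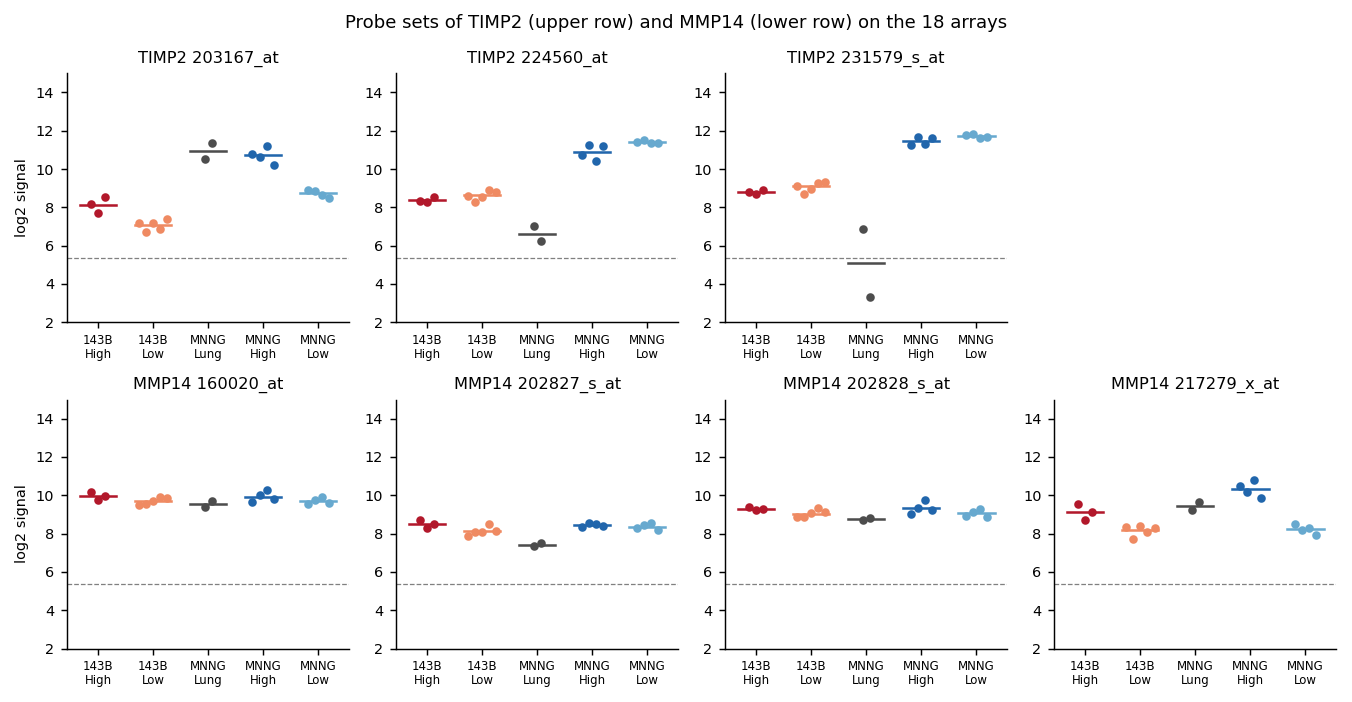
Log2 signal of every MMP14 and TIMP2 probe set (vertical axis) in High and Low cells of both lines and on the lung arrays (horizontal axis), 1 point for each array. MMP14 217279_x_at and TIMP2 203167_at are higher in every MNNG_High array than in any MNNG_Low array, while MMP14 160020_at overlaps and TIMP2 224560_at is lower in High.

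In 143B no gene was called by limma, where 0.00694% of all genes were, and none had an unadjusted p under 0.05. The largest differences were 0.45 ± 0.37 for MMP9, 0.44 ± 0.25 for MMP13 and 0.39 ± 0.30 for MMP1, with adjusted p from 0.986 to 0.999. These sizes rest on single arrays: with 1 array left out, MMP9 ran from -0.02 to 0.78, MMP13 from 0.26 to 0.55 and MMP1 from 0.02 to 0.66, and MMP9 turned without the High array of tumor 143B-1253. MMP13 was the single gene of the 8 whose groups did not overlap, where 11.9% of all genes did not.

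The same 2 probe sets were higher in every 143B_High array than in any 143B_Low array. MMP14 217279_x_at read 9.57, 8.72 and 9.14 in 143B_High against 8.35, 7.69, 8.40, 8.11 and 8.32 in 143B_Low, and the High arrays exceeded the Low value of their own tumor, or the mean of their pool's tumors, by 1.17, 0.70 and 0.93. TIMP2 203167_at read 8.19, 7.70 and 8.53 in 143B_High against 7.20, 6.72, 7.20, 6.86 and 7.41 in 143B_Low, with excesses of 0.99, 0.74 and 1.39. The differences, 0.97 ± 0.23 and 1.06 ± 0.24, were not called (adjusted p = 0.353 and 0.309). The other TIMP2 probe sets went the other way, with High minus Low of -0.21, -0.14 and -0.30 for 224560_at. For 231579_s_at these values were -0.20, -0.21 and -0.39. No probe set of the 17 was called, where 0.0113% of all were, 3 had an unadjusted p under 0.05, and 3 had groups that did not overlap, where 11.7% of all did not.

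The dye effect in MNNG minus that in 143B was 1.14 ± 0.32 for MMP14 217279_x_at and 0.91 ± 0.33 for TIMP2 203167_at, both with an adjusted p of 0.487. By that test neither was called as different between the lines, and none of the 8 genes was, where 0.00694% of all genes and 0.00377% of all probe sets were called. Of the member probe sets 2 had an unadjusted p under 0.05, and of the genes none.

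With the tumor as a replicate block, 5 of the 17 probe sets were called in MNNG and 2 in 143B, where 48.8% and 0.113% of all probe sets were. The MNNG calls were MMP14 217279_x_at, TIMP2 203167_at, MMP2 1566678_at (0.56, adjusted p = 0.0248), TIMP3 201148_s_at (0.32, adjusted p = 0.0441) and, lower in High, TIMP2 224560_at (-0.51, adjusted p = 0.0143). In 143B they were TIMP2 203167_at (1.05, adjusted p = 0.0419) and MMP14 217279_x_at (0.91, adjusted p = 0.0309). Of the MNNG_Low arrays only that of tumor MNNG-1231 shares the date tag of the MNNG_High arrays. Within that tag MMP14 217279_x_at differed by 1.83 and TIMP2 203167_at by 1.79, with 1 Low array, and neither was called. With the tag as a covariate the differences rest on that same Low array, so they must equal 1.83 and 1.79 and are no second check. Neither was called there (adjusted p = 0.0978 and 0.109). Over all alternatives run they stayed at or above 1.83 and 1.66.

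Other measures moved with the fraction. The summed log2 signal of 13 macrophage markers ran from 73.3 to 78.8 in MNNG_High against 65.1 to 67.1 in MNNG_Low, and 7 to 8 of them reached 5.36 in MNNG_High against 5 to 6 in MNNG_Low, with LYZ, TYROBP, C1QB, CD163 and MSR1 averaging under 5.36 in both. The sums of the osteoclast (32.4 to 34.6 against 30.2 to 30.4), neutrophil (40.4 to 45.2 against 39.7 to 40.2), endothelial (37.7 to 40.4 against 36.3 to 37.4) and lung epithelium markers (44.1 to 48.4 against 42.9 to 43.7) were also higher in every MNNG_High array than in any MNNG_Low array. In 143B the macrophage sum ran from 66.9 to 70.8 in High against 63.2 to 65.8 in Low cells, and the lung epithelium sum from 44.7 to 45.8 in High against 43.0 to 44.0 in Low cells. The actin 3' minus 5' difference was 0.75 to 1.55 in MNNG_High against 1.38 to 1.74 in MNNG_Low. With that difference as a covariate, chosen after the data were seen, MMP14 217279_x_at was 1.98 and TIMP2 203167_at 1.93 higher (adjusted p = 0.000719 and 0.00149). The GAPDH 3' minus 5' difference was 0.50 to 0.75 in MNNG_High against 0.34 to 0.41 in MNNG_Low, and with it as a covariate these probe sets were 1.95 and 1.66 higher (adjusted p = 0.000724 for both). Array spread moved with the fraction as well, with an interquartile range of 2.76 to 3.18 in MNNG_High against 3.29 to 3.40 in MNNG_Low. The array median was 5.33 to 5.42 against 5.26 to 5.28. Of the 10 neutrophil markers 2 passed the filter, so that sum rests largely on dim genes. The parts of array spread and of the marked cell types in these results were not tested.

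**Figure D4:**
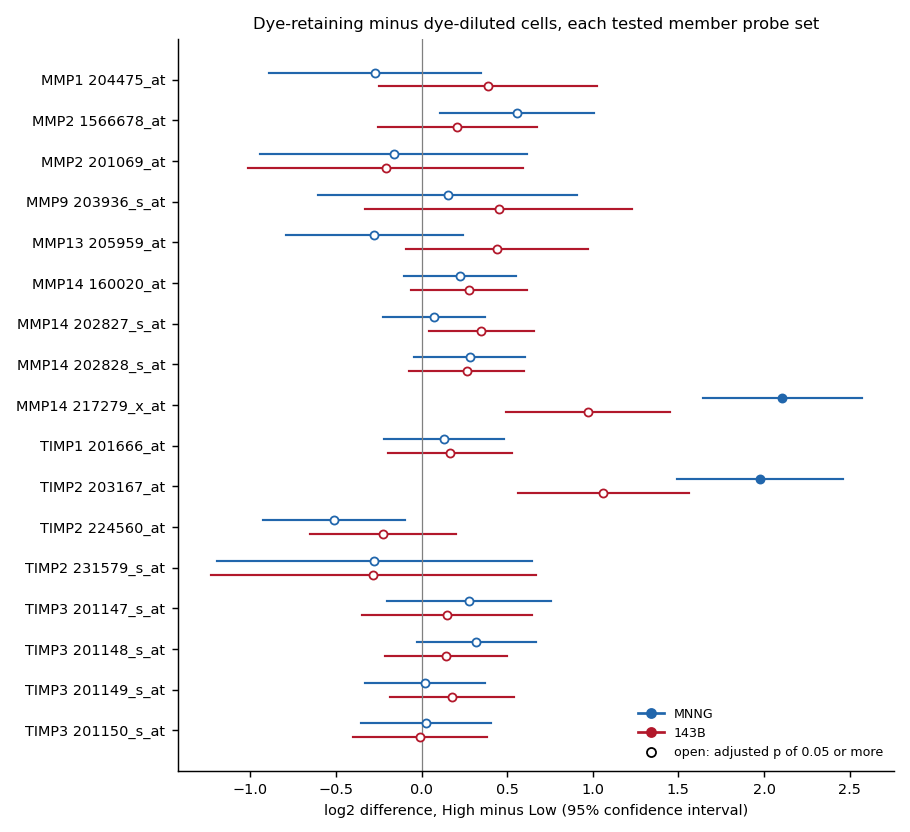
High minus Low difference in log2 signal with its 95% interval (horizontal axis) for all 17 probe sets tested (vertical axis), in MNNG and in 143B; filled points have an adjusted p under 0.05. The filled points are MMP14 217279_x_at at 2.11 and TIMP2 203167_at at 1.97, both in MNNG.

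The third question was how lung metastases of MNNG differ from the bone tumors. On the lung arrays 7 of the 8 genes were called against MNNG_High and against MNNG_Low, MMP1 and MMP9 higher and MMP2, MMP13, TIMP1, TIMP2 and TIMP3 lower. Against MNNG_High 82.4% of all genes were called (34.8% higher, 47.6% lower) and against MNNG_Low 87% (35.1% higher, 51.9% lower), so the count of called members is near the background. The same 7 genes did not overlap with the bone tumor groups, where 77.6% and 85.7% of all genes did not. The median over all genes was -0.37 against MNNG_High and -0.64 against MNNG_Low.

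All 3 inhibitors were lower by their representing probe sets. TIMP1 read 8.77 and 8.77 on the lung arrays, below every MNNG bone tumor array. It fell by 3.0 ± 0.20 relative to MNNG_High (adjusted p = 1.45e-10) and by 2.87 ± 0.20 relative to MNNG_Low (adjusted p = 1.97e-10). TIMP3 201150_s_at read 6.01 and 5.84 and fell by 4.48 ± 0.22 and 4.46 ± 0.22 (adjusted p = 2.09e-12 and 1.44e-12). TIMP2 231579_s_at read 6.86 on the array of animal MNNG-1233 and 3.33 on Mix, and fell by 6.36 ± 0.54 and 6.64 ± 0.54 (adjusted p = 3.72e-09 and 1.48e-09). Its lung mean, 5.10, lies under the filter, and the size rests on single arrays: TIMP2 differed by -4.60 and -4.87 without Mix, and by -8.13 and -8.40 without the lung array of MNNG-1233. TIMP1 and TIMP3 were called lower under every alternative run, and TIMP2 under every one except the actin covariate.

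The probe sets of a gene did not move alike. TIMP2 203167_at read 10.53 and 11.38 on the lung arrays, and was 2.23 ± 0.28 higher than in MNNG_Low (adjusted p = 6.71e-07) and 0.25 ± 0.28 from MNNG_High (adjusted p = 0.421, and 1.70 and called with a second quantile normalization). TIMP2 224560_at read 7.02 and 6.23, with differences of -4.27 ± 0.24 from MNNG_High and -4.79 ± 0.24 from MNNG_Low, both called. Thus 1 probe set of TIMP2 was on the side of the MNNG_High arrays and the others were far below both bone tumor groups. The 4 probe sets of TIMP3 were all lower, by 1.53 to 4.48 relative to MNNG_High and by 1.21 to 4.46 relative to MNNG_Low.

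Of the gelatinases, MMP2 201069_at read 7.20 and 6.97 on the lung arrays and fell by 2.83 ± 0.46 relative to MNNG_High and by 3.0 ± 0.46 relative to MNNG_Low (adjusted p = 1.57e-05 and 6.3e-06). MMP2 1566678_at went the other way, with 5.93 and 6.79 on the lung arrays and differences of 1.47 ± 0.26 and 2.03 ± 0.26, both called. It passed the filter only through the lung arrays and the MNNG_High array of tumor MNNG-1233 (5.37). Its means of 4.89 in MNNG_High and 4.33 in MNNG_Low lie under the filter, so the size of this rise is uncertain. As a mean over its probe sets MMP2 was not called (-0.46 relative to MNNG_High, adjusted p = 0.076, and -0.30 relative to MNNG_Low, adjusted p = 0.237). MMP9 read 6.77 on the lung array of animal MNNG-1233 and 7.44 on Mix, and rose by 1.08 ± 0.44 relative to MNNG_High (adjusted p = 0.0313) and by 1.23 ± 0.44 relative to MNNG_Low (adjusted p = 0.0146). Without Mix the differences were 0.75 (adjusted p = 0.234) and 0.90 (adjusted p = 0.149), and neither was called. Relative to MNNG_High, MMP9 was also not called without the MNNG_High array of tumor MNNG-1232 (adjusted p = 0.0713) or MNNG-1235 (adjusted p = 0.0523). With median centring MMP9 was called in neither comparison. It was called in 9 of 15 alternatives relative to MNNG_High and in 12 of 17 relative to MNNG_Low.

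Of the collagenases, MMP1 read 4.80 and 4.78 on the lung arrays, above the MNNG bone tumor groups but under the filter, with differences of 1.35 ± 0.36 from MNNG_High (adjusted p = 0.00219) and 1.08 ± 0.36 from MNNG_Low (adjusted p = 0.00972). Neither was called with a second quantile normalization (0.81, adjusted p = 0.0595, and 0.40, adjusted p = 0.340), array weights (adjusted p = 0.314 and 0.367) or the actin covariate (adjusted p = 0.421 and 0.529), and with median centring the second was not (0.70, adjusted p = 0.084). Array weights also ended the calls of MMP9 and MMP13 in both comparisons. MMP13 read 5.36 and 4.81 and fell by 0.92 ± 0.30 relative to MNNG_High (adjusted p = 0.00905) and by 1.19 ± 0.30 relative to MNNG_Low (adjusted p = 0.00118). Without Mix the difference from MNNG_High was -0.64 and not called (adjusted p = 0.126), and the difference from MNNG_Low within the shared date tag was -0.63 and not called (adjusted p = 0.285).

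MMP14 160020_at read 9.41 and 9.68 on the lung arrays and was not called (-0.38 ± 0.19 from MNNG_High, adjusted p = 0.0693, and -0.16 ± 0.19 from MNNG_Low, adjusted p = 0.437). MMP14 was called lower against both groups with median centring (-0.65 and -0.53) and called higher with a second quantile normalization (1.26 and 1.72), so no direction is given. Relative to MNNG_High it was also called lower as a mean over probe sets (-0.71), without the MNNG_High array of tumor MNNG-1231 (-0.48) and without Mix (-0.51). Its probe set 217279_x_at read 9.24 and 9.67, lay between the bone tumor fractions, and differed by -0.87 ± 0.27 from MNNG_High (adjusted p = 0.0067) and by 1.23 ± 0.27 from MNNG_Low (adjusted p = 0.000347). Probe set 202827_s_at was lower than both (-1.01 ± 0.17 and -0.94 ± 0.17, called), and 202828_s_at was called lower relative to MNNG_High (-0.57 ± 0.19, adjusted p = 0.0103) and not relative to MNNG_Low (-0.29 ± 0.19). Of the 17 probe sets, 15 were called against MNNG_High (3 higher, 12 lower) and 15 against MNNG_Low (5 higher, 10 lower), where 78.5% (34.9% higher, 43.6% lower) and 84.4% (35.1% higher, 49.3% lower) of all probe sets were.

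**Figure D5:**
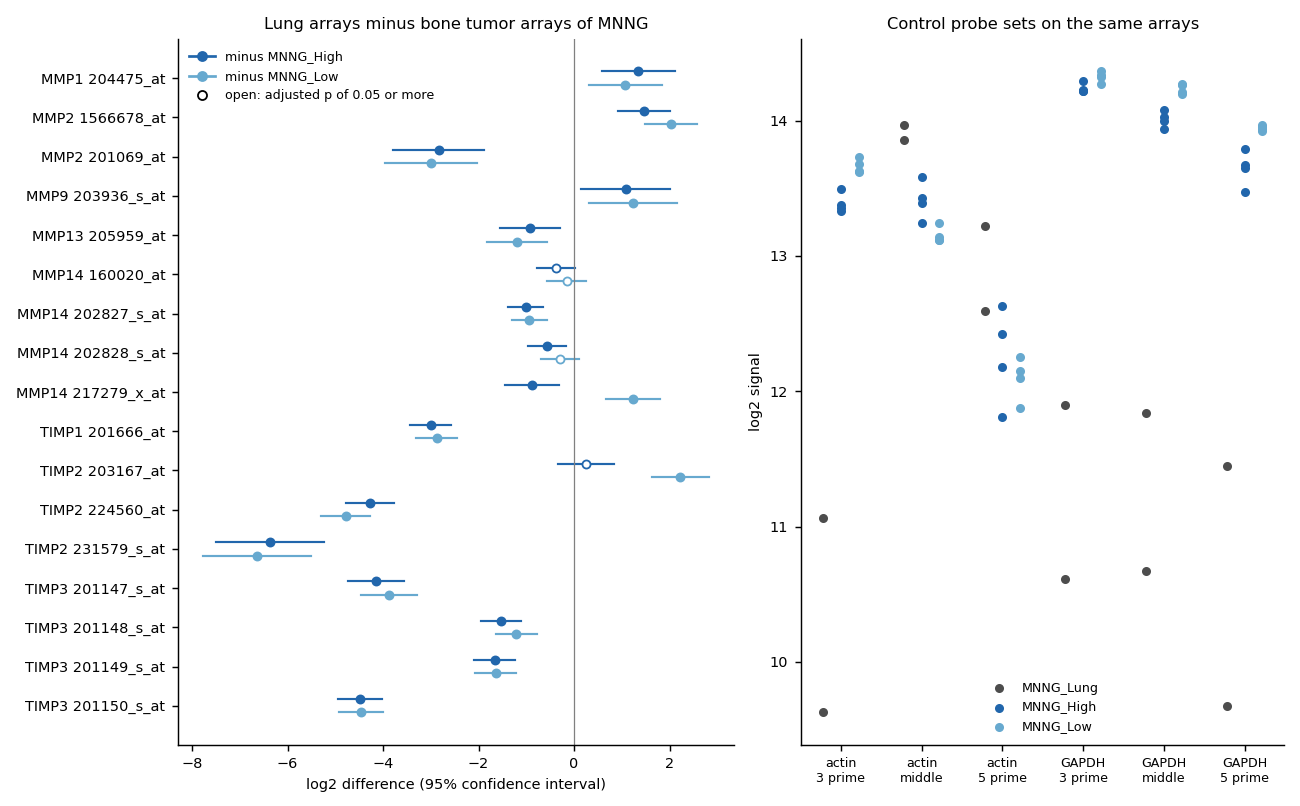
Lung minus bone tumor difference in log2 signal with its 95% interval (horizontal axis) for the 17 probe sets tested (vertical axis), against MNNG_High and against MNNG_Low. The grey line marks no difference. A second panel shows the log2 signal of the actin and GAPDH control probe sets on the MNNG arrays. TIMP2 203167_at lies at 0.25 and 2.23 while TIMP2 231579_s_at lies at -6.36 and -6.64, and MMP2 1566678_at lies at 1.47 and 2.03 while MMP2 201069_at lies at -2.83 and -3.0.

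RNA controls and markers of other cell types moved with the lung arrays. The actin 3' minus 5' difference was -2.97 and -2.16 on the lung arrays, against 0.75 to 1.55 in MNNG_High and 1.38 to 1.74 in MNNG_Low. The GAPDH 3' probe set read 10.61 and 11.90 on the lung arrays, against 14.22 to 14.29 in MNNG_High and 14.27 to 14.36 in MNNG_Low. With the actin difference as a covariate, chosen after the data were seen, 2 of the 8 genes were called in each lung comparison, TIMP1 (-3.33 against MNNG_High, -3.24 against MNNG_Low) and TIMP3 (-4.75 and -4.76), and MMP9 turned to -1.43 and -1.58 without being called.

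The summed log2 signal of the 13 macrophage markers was 90.5 and 91.9 on the lung arrays, against 73.3 to 78.8 in MNNG_High and 65.1 to 67.1 in MNNG_Low, with 12 to 13 of 13 reaching 5.36 on the lung arrays. For 10 neutrophil markers it was 53.8 to 56.3, against 40.4 to 45.2 and 39.7 to 40.2, with 4 to 5 of 10 reaching 5.36 and MPO averaging 6.05, ELANE 4.83 and CEACAM8 4.70 on the lung arrays. For 6 osteoclast markers it was 39.1 to 39.6, against 32.4 to 34.6 and 30.2 to 30.4. For 8 endothelial markers it was 48.1 to 50.5, against 37.7 to 40.4 and 36.3 to 37.4, and for 8 lung epithelium markers 53.96 to 56.7, against 44.1 to 48.4 and 42.9 to 43.7. For 10 osteoblast and mesenchyme markers it was 73.5 to 79.9, against 92.6 to 94.5 and 92.4 to 93.9. The part of these cell types in the differences of MMP9 and the other members was not tested.

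Genes that act with the MMPs were followed in lists. Of the activators and inducers, 15 were tested, and between the lines 7 were higher and 2 lower in 143B_High than in MNNG_High, and 6 higher and 4 lower in 143B_Low than in MNNG_Low. Of all genes, 21.4% were higher and 14.7% lower in High and 14.4% and 14.5% in Low cells, which is the background of every list between the lines. PLAU, the urokinase that generates plasmin, averaged 11.17 in 143B_High against 8.50 in MNNG_High (2.67 ± 0.18) and 11.02 in 143B_Low against 8.52 in MNNG_Low (2.50 ± 0.16). PLAUR, its receptor, differed by 1.95 ± 0.16 and 1.71 ± 0.14, and FOSL1, a subunit of AP-1, which is known to drive MMP1 transcription, by 1.91 ± 0.21 and 1.69 ± 0.18, all called. The list's median was -0.02 in High and -0.04 in Low cells, close to that of all genes (0.01 and -0.04).

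Of 11 substrates tested, 2 were higher and 4 lower in 143B in each fraction. COL4A2 and COL4A1, chains of type IV collagen, were higher, by 1.22 ± 0.24 and 1.4 ± 0.30 in High and by 1.25 ± 0.21 and 1.22 ± 0.27 in Low cells. COL1A1, of type I collagen, differed by -3.23 ± 0.84 in High and -3.03 ± 0.74 in Low cells, and COL1A2 by -1.35 ± 0.43 and -2.32 ± 0.38, all called. Of 10 other inhibitors and clearance factors, 1 was higher and 4 were lower in 143B_High, and 2 higher and 2 lower in 143B_Low. THBS2, thrombospondin 2, which helps clear MMP2, was the largest (3.89 ± 0.24 and 4.06 ± 0.21), while PCOLCE, the procollagen C-proteinase enhancer (-1.35 ± 0.25 and -1.60 ± 0.22), and SPOCK1, a matrix proteoglycan (-2.24 ± 0.54 and -3.07 ± 0.47), were lower.

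Among 9 other MMPs tested, of 16 on the array, MMP10 was the one called higher in 143B in each fraction. In High cells MMP28 (-0.68 ± 0.22) and MMP17 (-0.65 ± 0.21) were called lower, and in Low cells none was. Of 12 ADAM and ADAMTS enzymes tested, 4 were higher and 1 lower in 143B_High, and 3 higher and 1 lower in 143B_Low. ADAM8 was the lower one (-1.68 ± 0.19 and -1.72 ± 0.17), ADAMTS1 (1.53 ± 0.21 and 0.92 ± 0.18) and ADAMTS9 (0.73 ± 0.20 and 0.97 ± 0.18) were higher in both fractions. ADAM19 was called in High cells (1.14 ± 0.24), and its difference in Low cells was 0.54 ± 0.21 and not called.

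For dye retention, none of these lists had a called member in 143B or in the test between the lines. In MNNG, where 10.6% of all genes were called higher and 15.5% lower, 4 of the 9 other MMPs were called higher in High and none lower, among them MMP24 (0.56 ± 0.14), MMP15 (0.53 ± 0.17) and MMP17 (0.58 ± 0.19), and the list's median was 0.45 against -0.19 over all genes. In MNNG_Low these 3 genes averaged 5.55, 5.98 and 5.98, not far above the filter. Array spread and array median also differed between these fractions. Calls over all genes went from 3761 to 3 with the date tag as a covariate. The part of these in the list's values was not tested. Of the ADAM list 2 were higher, ADAM10 (0.69 ± 0.17) and ADAMTS2 (0.66 ± 0.22), and 1 lower, ADAM9 (-0.53 ± 0.17). Of the other inhibitors, A2M (0.73 ± 0.19) and LRP1 (0.42 ± 0.13), the receptor that takes up MMPs bound to inhibitors, were higher. RECK, a membrane-anchored MMP inhibitor, was lower (-0.60 ± 0.21). A2M averaged 5.31 in MNNG_High and 4.58 in MNNG_Low, both under the filter, so its size is uncertain. Of the activators PCSK6 was higher (0.51 ± 0.17), and of the substrates DCN (0.49 ± 0.15), with none lower in either list.

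The lung counts of the lists stand against a background of 82.4% of all genes called relative to MNNG_High (34.8% higher, 47.6% lower) and 87% relative to MNNG_Low (35.1% higher, 51.9% lower). On the lung arrays, 6 of the 9 other MMPs were higher and 1 lower relative to MNNG_High, and 7 higher and 1 lower relative to MNNG_Low, with medians of 0.83 and 1.38 against -0.37 and -0.64 over all genes. MMP24 (1.23 ± 0.17 and 1.79 ± 0.17) and MMP15 (1.47 ± 0.21 and 2.0 ± 0.21) were higher in both comparisons, as were MMP19 (1.61 ± 0.26 and 2.06 ± 0.26) and MMP28 (1.43 ± 0.24 and 1.99 ± 0.24). Of 15 activators, 11 were lower and 2 higher relative to MNNG_High, and 12 lower and 2 higher relative to MNNG_Low, and those of smallest p were BSG, the inducer of MMPs also called EMMPRIN (-3.0 ± 0.15 and -3.32 ± 0.15), CTSB (-4.94 ± 0.33 and -4.81 ± 0.33) and RUNX2 (-3.42 ± 0.27 and -3.83 ± 0.27). FOS, at -4.01 ± 0.59 and -3.88 ± 0.59, fell by more than BSG and RUNX2. Of 10 other inhibitors, 5 were lower and 2 higher relative to MNNG_High, and 7 lower and 2 higher relative to MNNG_Low, among them CD63 (-4.74 ± 0.40 and -4.79 ± 0.40), a surface partner of TIMP1, THBS1 (-3.59 ± 0.31 and -3.67 ± 0.31) and PCOLCE (-2.67 ± 0.28 and -2.78 ± 0.28).

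The substrates and the ADAM list completed the lung comparison. Of 11 substrates, 6 were lower and 2 higher relative to MNNG_High, and 5 lower and 2 higher relative to MNNG_Low, and those of smallest p were COL4A2 (-3.94 ± 0.27 and -4.0 ± 0.27), COL4A1 (-4.11 ± 0.34 and -4.29 ± 0.34) and VCAN (-4.12 ± 0.38 and -4.64 ± 0.38). The largest fall in that list was that of FN1 (-5.06 ± 0.52 and -5.12 ± 0.52). The lung arrays lay far apart for FN1, FOS and CD63 (standard deviations 2.27, 2.62 and 1.87), so the sizes of these falls are uncertain. Of 12 ADAM and ADAMTS enzymes, 5 were lower and 5 higher relative to MNNG_High, and 5 lower and 6 higher relative to MNNG_Low. ADAM9 (-4.92 ± 0.21 and -5.45 ± 0.21) and ADAM17 (-4.38 ± 0.31 and -4.77 ± 0.31) were lower and ADAMTS4 (1.75 ± 0.20 and 2.17 ± 0.20) was higher.

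The genes most like the 3 members with the widest range of group means were found by the root mean square difference of log2 values over the 18 arrays, each gene centred on its own mean. For MMP1, whose group means span 9.67, these were EPB41L3 (1.52), CCND2 (1.75) and RTN1 (1.99). All of them were high in 143B, where EPB41L3 averaged 9.28 in High and 9.56 in Low cells, against 3.28 in MNNG_High and 2.96 in MNNG_Low. For TIMP2, whose means span 6.64, they were ANXA1 (0.386), COL6A1 (0.529) and GEM (0.542). ANXA1 averaged 10.84 in 143B_High, 10.66 in 143B_Low and 7.33 on the lung arrays, against 13.18 in MNNG_High and 13.48 in MNNG_Low. For TIMP3, whose means span 4.48, they were SLC39A14 (0.217), SUMO3 (0.219) and CFDP1 (0.223), each lower on the lung arrays than in any bone tumor group by its mean.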

How the data were processed

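Labeled RNA of 18 samples was hybridized to Affymetrix human 3' arrays with 54675 probe sets. The deposited values are log2 signals, made by the authors with RMA, per the submitters' processing notes; the sources used here give no version or genome build and do not say which arrays were normalized as a set. RMA equalizes array distributions and can hide a change shared by most genes. The platform annotation gave 1 gene to 41097 probe sets, several to 1801 and none to 11777, and the last 2 kinds were not named. All 19 member probe sets matched RefSeq by Entrez ID.

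From these values, a single limma 3.58.1 fit in R 4.3.3 estimated a mean for each of 5 groups, with Benjamini-Hochberg adjustment over all features tested; 7 comparisons were made, and the code was tested on simulated data. Groups and tumor numbers came from the sample titles, which mark separate tumors. Same-numbered High and Low arrays were taken as the same tumor by their titles. Their deviations from the group means correlated over genes at 0.494, 0.370, 0.299 and 0.579 in MNNG and at 0.542 for tumor 143B-1253. Each pool was read as the tumors whose numbers end in its digits, and against the mean of their tumors the pools gave 0.327 and 0.243. Deviations of differently numbered arrays were not correlated, so these values do not test the pairing. The members, the pathway lists (other MMPs, ADAM and ADAMTS, other inhibitors and clearance, activation and induction, substrates) and the marker lists were chosen with earlier results of these data known. All members were named, and from each pathway list up to 3 called genes of smallest p in a comparison. Alternatives covered scaling, filter, choice of probe set, samples fitted, array weights, date tag, tumor block, RNA control covariates and single arrays left out; the actin covariate was added after the data were seen.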

Additional observations from a re-analysis of the deposited data

Results flagged for a closer look

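Among the member probe sets, 57 groups of 4 or more arrays were examined for an array far from the others of its group, and 3 had one, where chance gives about 1 in 20 groups. TIMP1 201666_at read 11.995 in the MNNG_Low array of MNNG-1232, against 11.56 for the next array of that group. TIMP3 201149_s_at read 9.01 in the MNNG_High array of MNNG-1232, against 8.65 for the next. TIMP3 201148_s_at read 8.70 in the 143B_Low array of 143B-1252, against 9.25 for the next.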

How the results depend on the processing

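All 6 member calls between the lines held in both fractions under every alternative. The number of members called in MNNG_High minus MNNG_Low was 0 and became 1 with the mean over probe sets (MMP14, 0.67, adjusted p = 0.00538). In MNNG_Lung minus MNNG_High and MNNG_Lung minus MNNG_Low it was 7 and became 4 with array weights (61.9% and 69.7% of all genes called) and 2 with the actin covariate (20.2% and 24.9%). Among probe sets of the members, MNNG_High minus MNNG_Low gave 2 calls (25.5% of all probe sets), and 4 without the lung arrays (41.5%), 4 with array weights (39.8%), 0 with a date tag covariate (0.0226%), 0 within the shared tag (0%) and 5 with the replicate block (48.8%), with 2 to 4 when single arrays were left out (4, with 40.9%, without the MNNG_High array of MNNG-1235). 143B_High minus 143B_Low gave 0 calls (0.0113%), and 2 with array weights (1.33%) and 2 with the replicate block (0.113%); the difference of the dye effects gave 0, and 1 with array weights, where 1.02% of all were called (MMP14 217279_x_at, 1.06, adjusted p = 0.0435). The replicate block changed no other member call, and no paired analysis was possible for the lung or line comparisons, since they share at most 1 tumor number. The lung comparisons gave 15 probe set calls each, and 5 with the actin covariate (15.4% of all probe sets against MNNG_High, 19.6% against MNNG_Low). A second quantile normalization turned signs for MMP14, MNNG_Lung minus MNNG_High (160020_at 1.26, 202828_s_at 1.0, 217279_x_at 0.80) and MNNG_Lung minus MNNG_Low (160020_at 1.72, 202828_s_at 1.54, 202827_s_at 0.17), and for TIMP3 201148_s_at, MNNG_Lung minus MNNG_Low (0.29). The actin covariate turned MMP9 to -1.43 against MNNG_High and -1.58 against MNNG_Low. With median centring the members called on the lung arrays were 1 higher and 6 lower against MNNG_High, and 0 higher and 6 lower against MNNG_Low; the median of all genes moved to -0.67 and -1.05, and to -0.03 and -0.11 with a second quantile normalization. In MNNG_High minus MNNG_Low these scalings gave 20.6% and 72.8% of all calls as higher, against 40.7%, with the median of all genes at -0.30 and 0.01. Calls over all genes in that comparison went to 7630 with the replicate block, 3 with a date tag covariate, 0 within the shared tag and 1376 to 5939 with single arrays left out, against 3761. They were 3589 and 2909 of 12541 and 11879 in the lung comparisons (against MNNG_Low, against MNNG_High) with the actin covariate. MMP9 and TIMP3 gave no value with the _x_at and _s_at probe sets left out, since they have no other. The cause was not tested for any of these. Signal over background limits MMP1 in MNNG, MMP13 in 143B, and MMP1, MMP13 and TIMP2 on the lung arrays, where means lie under 5.36.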
